A study of Mus musculus with 4 samples.

Results

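Hippocampal RNA from the 2 libraries without Mutyh, Mutyh KO and DKO, was set against RNA from the 2 libraries with an intact Mutyh gene, WT and Ogg1 KO. The Mutyh KO library came from Mutyh-/- mice, and the DKO library, short for double knockout, from mice lacking both Ogg1 and Mutyh. The WT library came from wild type mice and the Ogg1 KO library from Ogg1-/- mice. All 4 genotypes were on the C57BL/6 strain and 6 months old, and each was represented by 1 library, so these are all 4 libraries of the series. For every gene with a mean of at least 1 RPKM (unique reads scaled to gene length in kilobases and to mega-reads of library size), the mean log2(RPKM+1) of the Mutyh-null pair minus that of the Mutyh-intact pair was taken, which gave 13186 genes of 18492 listed. The gap was defined as the log2 distance between the nearest libraries of the pairs, and the spread as the larger of both within-pair distances. Each pair holds 1 library with Ogg1 and 1 without it, so its members are not replicates of a genotype. How the null alleles were made, and the number and sex of the animals behind each library, are not stated in the labels. Sex-linked reads are given below.

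MUTYH is a DNA glycosylase of base excision repair. When 8-oxoguanine, the commonest oxidised base, escapes OGG1 and is copied, adenine can be placed opposite it. MUTYH cuts out that adenine and so lowers the rate of G-to-T mutation, and in neurons with many oxidised bases its cutting can also leave strand breaks. It acts on DNA and is not a transcription factor.

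The clearest separation of the pairs was opposite read counts of near-identical gene copies. BC002163 is annotated by RefSeq (GRCm38.p6) as the transcribed pseudogene Ndufs5-ps on the plus strand of chromosome 16. Reads assigned to it were found in both Mutyh-null libraries and were nearly absent from both Mutyh-intact libraries. Ndufs5, which lies on the minus strand of chromosome 4, the chromosome of Mutyh, and encodes an accessory subunit of respiratory complex I, showed the opposite order. The first 150 bases of the Ndufs5 reading frame and the matching stretch of BC002163, from GENCODE transcripts on GRCm38, are shown because they hold every base that tells the copies apart over the aligned part, in capitals.
Ndufs5: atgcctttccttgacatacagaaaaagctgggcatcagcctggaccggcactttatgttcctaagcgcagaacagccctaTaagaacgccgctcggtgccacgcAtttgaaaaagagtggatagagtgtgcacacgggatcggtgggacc
BC002163: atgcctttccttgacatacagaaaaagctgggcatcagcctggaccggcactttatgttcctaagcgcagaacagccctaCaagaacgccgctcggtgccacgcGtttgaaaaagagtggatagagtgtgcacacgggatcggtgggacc
Counted from 1 at the A of the Ndufs5 start codon, the differences of BC002163 from Ndufs5 were T81C and A105G. The copies were 99.4% identical over 319 aligned bases, with 0 differing amino acids if BC002163 were read in the same frame. The last 114 bases of the Ndufs5 transcript were not compared.

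BC002163 (gene ID 170658) had 124 and 149 reads in Mutyh KO and DKO, against 1 and 1 in WT and Ogg1 KO. These were 14.5 and 16.4 RPKM in the Mutyh-null libraries and 0.110 and 0.118 RPKM in the Mutyh-intact libraries. The pairs lay 3.79 apart on the log2(RPKM+1) scale, with a spread of 0.17. It was the gene whose reads were called higher, with a log2 fold change of 6.92 ± 0.36 (SE). The adjusted p was 0.000489 in edgeR's quasi-likelihood test with Benjamini-Hochberg adjustment over all 13186 genes. Summed over each pair, reads per library total were 136-fold those of the Mutyh-intact pair, with an exact 95% counting interval of 37.2 to 1126. Reads covered 120 of the 500 bases of BC002163 in each Mutyh-null library and 49 in each Mutyh-intact library.

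Ndufs5 (gene ID 595136) had 36 and 36 reads in Mutyh KO and DKO, against 151 and 135 in WT and Ogg1 KO. In RPKM these were 3.89 and 3.66 in the Mutyh-null libraries and 15.4 and 14.7 in the Mutyh-intact libraries. The gap was 1.68 and the spread 0.07, the clearest separation in the lower direction. The log2 fold change of -1.99 ± 0.18 (SE) had an edgeR adjusted p of 0.0586, which misses the threshold of 0.05. Over the alternatives that adjusted p ran from 7.98e-05 (DESeq2) to 0.795 (without the Mutyh KO library). That of BC002163 stayed between 6.04e-07 and 0.0233.

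Summed reads of both copies differed little between the pairs. Their sum was 160 and 185 in Mutyh KO and DKO, against 152 and 136 in WT and Ogg1 KO, a ratio of 1.19 (1.02 to 1.40, counting error only). BC002163 took 77.5% and 80.5% of these reads in Mutyh KO and DKO, against 0.658% and 0.735% in WT and Ogg1 KO. The authors' counting can split reads between copies this alike, so the level of each copy on its own is uncertain, and which locus was transcribed was not tested.

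**Figure D1:**
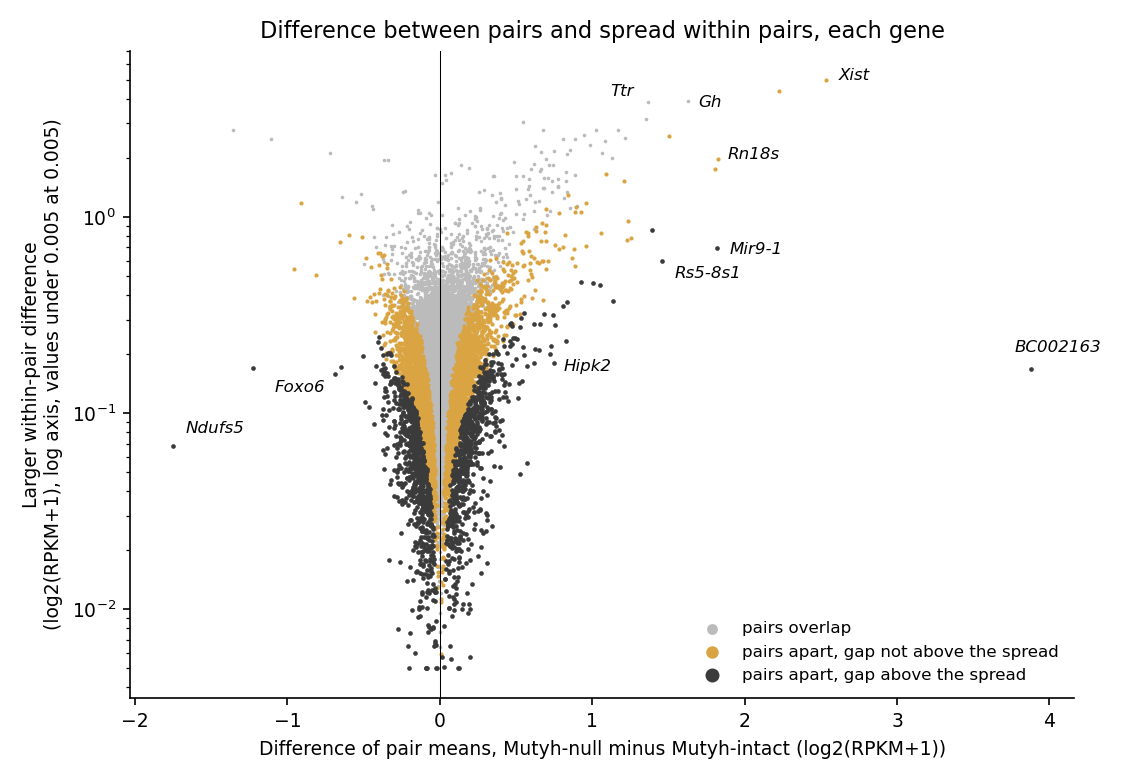
Difference of pair means (x axis, Mutyh-null minus Mutyh-intact, log2(RPKM+1)) against the larger within-pair difference (y axis, same unit, log scale) for each of the 13186 genes. Black points have a gap above their spread, ochre points have pairs that do not overlap but a smaller gap, and grey points have overlapping pairs; BC002163 at 3.88 and Ndufs5 at -1.75 stand apart with small spreads, while Xist, Ttr and Gh have large differences and large spreads.

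Across all genes, the difference between the pairs was of the size of the differences within them. The median size of the difference between pair means was 0.08 on the log2(RPKM+1) scale, and its 95th percentile was 0.30. The median distance was 0.08 between Mutyh KO and DKO and 0.12 between WT and Ogg1 KO. Across the pairs it was 0.11 for Mutyh KO and WT, 0.10 for Mutyh KO and Ogg1 KO, 0.10 for DKO and WT, and 0.11 for DKO and Ogg1 KO. Every cross-pair distance thus lay between the 2 within-pair distances. Genes at least 2-fold apart numbered 40 between Mutyh KO and DKO, 101 between WT and Ogg1 KO, and 51 to 110 in the comparisons across the pairs.

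The test across genes called 1 gene higher in the Mutyh-null pair, BC002163 (0.00758% of the genes compared), and 0 genes lower (0%). With no adjustment, 884 genes had an edgeR p below 0.05, of which 507 were higher and 377 lower. DESeq2 called 10 genes higher and 2 lower, and limma 1 in each direction. Leaving out a library changed these counts: edgeR called 2 genes higher without Mutyh KO, 3 without DKO, 8 without WT and 13 without Ogg1 KO. It called 6 lower without WT, 1 lower without Ogg1 KO, and 0 lower without either of the others. In those fits the lone library of a pair is assumed to vary like the libraries of the other pair. The error in this test is the spread within pairs, which contains any effect of Ogg1, so its p-values speak of these 4 libraries.

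Counted by order alone, 2416 genes (18.3%) had both Mutyh-null libraries above both Mutyh-intact libraries and 2582 (19.6%) had both below. The gap was small in most of these, with a median of 0.06. It exceeded the spread in 689 genes in the higher direction (5.23%) and in 787 in the lower direction (5.97%). A gap of at least 0.5 was found in 21 genes in the higher direction and 4 in the lower direction. With a library left out the pairs separate more genes by construction, 3856 (without Mutyh KO) to 5103 (without Ogg1 KO) in the higher direction and 4013 (without DKO) to 5008 (without WT) in the lower direction. Of 31 genes whose pair means differed by at least 1, 20 had pairs that did not overlap.

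The 12 genes with the widest gap in the higher direction were mostly noncoding RNAs. After BC002163 came Mir9-1, Rn18s, Rs5-8s1, Rn28s1, Mir341, Rn7sk, Rpph1, Ifi27l2a, Copg2as2, Snora81 and Slc6a20a. Of the 12, 8 are ribosomal RNAs, other structural RNAs or hosts of small RNAs by name. None of the 22 named by gap besides BC002163 and Ndufs5 passed the edgeR test (adjusted p from 0.298 to 0.766).

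Ribosomal RNA was the most abundant of these. Rn28s1, the 28S ribosomal RNA, had 166015 and 197531 reads in Mutyh KO and DKO, against 95108 and 49314 in WT and Ogg1 KO. Rn18s, the 18S ribosomal RNA, had 68029 and 71723 reads against 37564 and 10434. Both were highest in the Mutyh-null libraries, and the Mutyh-intact libraries differed among themselves, by 1.76 in Rn18s on the log2(RPKM+1) scale. Rn7sk, which holds the elongation factor P-TEFb in an inactive complex, had 299 and 345 reads in Mutyh KO and DKO, against 182 and 39 in WT and Ogg1 KO. Rpph1, the RNA of ribonuclease P, had 20 and 29 reads against 10 and 6. Listed structural RNAs together took 1.37% and 1.48% of all reads in Mutyh KO and DKO, against 0.734% and 0.352% in WT and Ogg1 KO. Their share moves with the pairs, and its part in other differences was not tested, beyond the counts obtained with these RNAs left out of the library totals, in which 2725 genes lay higher and 2242 lower.

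Several of the small RNAs rest on very few reads. Mir9-1, a host locus of miR-9, had 6 and 5 reads in Mutyh KO and DKO, against 1 and 0 in WT and Ogg1 KO. Mir341, of the imprinted Dlk1-Dio3 cluster, had 3 and 5 against 1 and 1. Snora81, a guide RNA for pseudouridylation, had 17 and 26 against 8 and 10. Mir9-1 and Mir341 had at most 6 reads in any library.

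The 10 genes that DESeq2 called higher and the 2 it called lower include BC002163, Ndufs5 and Rs5-8s1, and the others described were named after their values were seen. Hipk2, a nuclear kinase that acts on p53 and other regulators, had 2004 and 1963 reads in Mutyh KO and DKO, against 1102 and 1219 in WT and Ogg1 KO. Its pairs were 0.56 apart with a spread of 0.22, and edgeR gave a log2 fold change of 0.76 ± 0.10 (SE) and an adjusted p of 0.298. Both Mutyh-null libraries were well above both Mutyh-intact libraries. Copg2as2, a transcript antisense to Copg2 in an imprinted cluster, had 710 and 859 reads in Mutyh KO and DKO, against 474 and 424 in WT and Ogg1 KO, with the same adjusted p of 0.298. Without strand information its reads cannot be told from those of overlapping genes.

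Aebp1, Slc6a20a and Prg4 were also among the DESeq2 calls. Aebp1, a matrix-associated protein, had 946 and 1130 reads in Mutyh KO and DKO, against 500 and 618 in WT and Ogg1 KO. Slc6a20a, an imino acid transporter, had 282 and 350 reads against 125 and 175. Prg4, the joint lubricant proteoglycan, had 204 and 401 against 138 and 126. Reads of the meningeal marker list were also higher in both Mutyh-null libraries. They stood at 1721 and 1685 per M (mega) reads in Mutyh KO and DKO, against 772 and 1256 in WT and Ogg1 KO. Within the Mutyh-null pair the sums of the list were close to each other. The part of meningeal reads in Aebp1, Slc6a20a and Prg4 was not tested. In these genes the pairs did not overlap, but the libraries of a pair also differed, by 0.35 in Aebp1, 0.47 in Slc6a20a and 0.70 in Prg4. Dgkh, the eta form of diacylglycerol kinase, had 254 and 343 reads in Mutyh KO and DKO, against 141 and 150 in WT and Ogg1 KO. Gm6300, whose role is not known here, had 6113 and 5949 against 4520 and 4226, and Rs5-8s1, the 5.8S ribosomal RNA, had 117 and 179 against 42 and 61.

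In the lower direction the 12 widest gaps belonged to Ndufs5, Snord14e, Mir1191, Plac9a, Foxo6, Crip3, Crhr1, Snora28, Ndufa4l2, Rab3b, Syndig1l and Plekhj1. Foxo6, a forkhead transcription factor strongly expressed in hippocampus, had 432 and 402 reads in Mutyh KO and DKO, against 662 and 689 in WT and Ogg1 KO. Its pairs were 0.49 apart with a spread of 0.17, and its edgeR log2 fold change was -0.70 ± 0.11 (SE, adjusted p 0.548). It was the other gene besides Ndufs5 that DESeq2 called lower. Rab3b, a small GTPase of synaptic vesicles, had 695 and 551 reads in Mutyh KO and DKO, against 976 and 899 in WT and Ogg1 KO. Crhr1, the receptor of corticotropin-releasing hormone, had 146 and 154 reads against 219 and 225. The pairs did not overlap in either gene.

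The rest of these genes follow. Ndufa4l2, a hypoxia-induced relative of the respiratory chain protein Ndufa4, had 32 and 33 reads in Mutyh KO and DKO, against 49 and 50 in WT and Ogg1 KO. Syndig1l, a protein enriched in striatum, had 134 and 134 reads against 192 and 179. Plekhj1, a pleckstrin homology domain protein, had 278 and 297 against 379 and 370. The libraries within each pair differed little in these 3 genes, with spreads of 0.05 to 0.09. Plac9a, whose reads can be split with its close copy Plac9b, had 56 and 38 reads in Mutyh KO and DKO, against 114 and 83 in WT and Ogg1 KO. Crip3 had 22 and 24 reads against 43 and 36, while Snord14e, Mir1191 and Snora28 had at most 13 reads in any library.

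**Figure D2:**
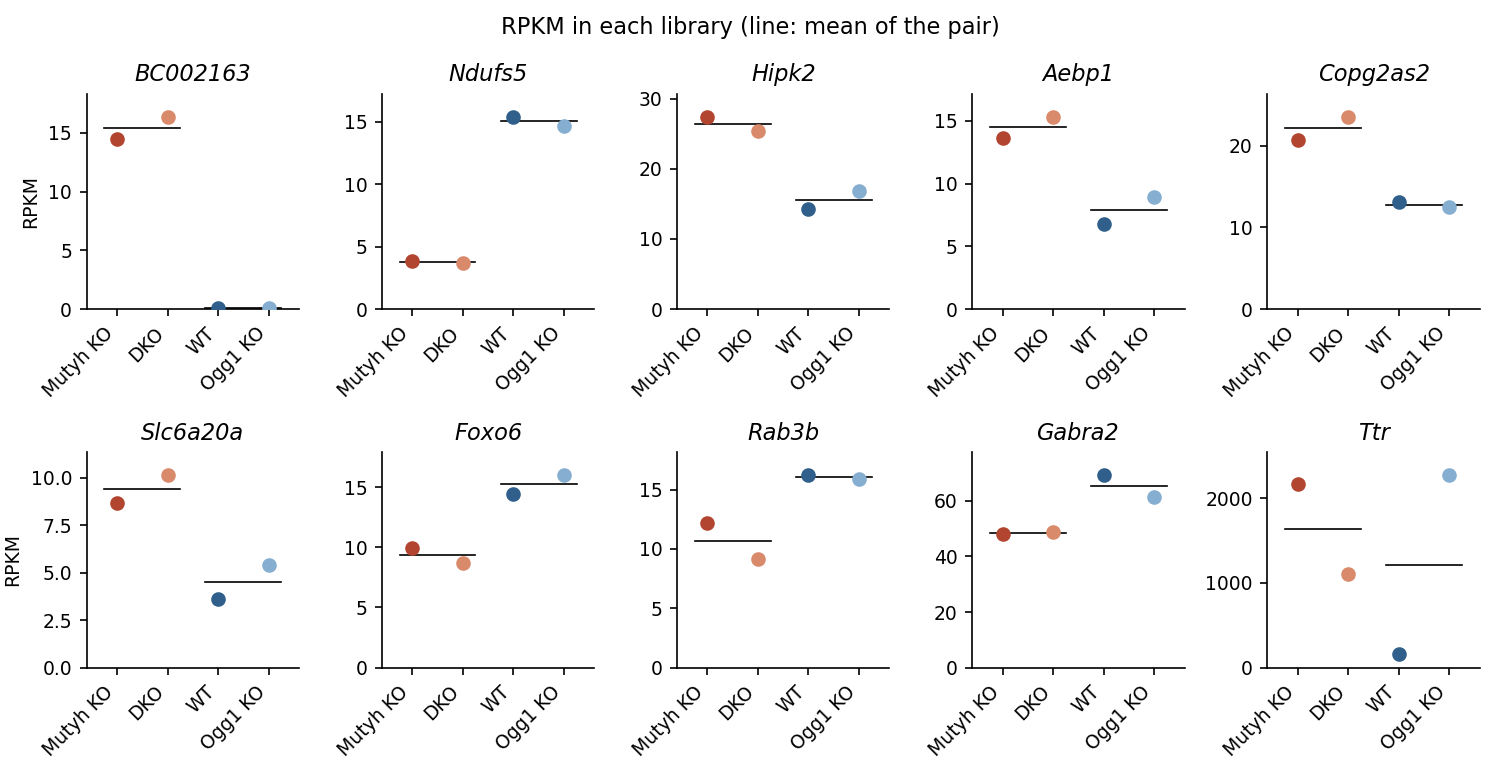
RPKM in each library (y axis, from 0) for 10 genes, with the Mutyh-null libraries at the left of each panel and a line at the mean of each pair. In the first 9 panels the pairs do not overlap; in Ttr, a choroid plexus gene, they do, since WT at 158 RPKM and Ogg1 KO at 2274 RPKM lie at either end.

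Mutyh itself (gene ID 70603) was low but detected in the libraries labelled as lacking it. It had 15 and 20 reads in Mutyh KO and DKO, against 39 and 35 in WT and Ogg1 KO. These were 0.504 and 0.633 RPKM in the Mutyh-null libraries and 1.24 and 1.18 RPKM in the Mutyh-intact libraries. Reads covered 18.4% and 27.7% of its length in Mutyh KO and DKO, against 55.9% and 57.1% in WT and Ogg1 KO. The gap of 0.42 exceeded the spread of 0.12, and the reads of the Mutyh-null pair were 0.470-fold those of the Mutyh-intact pair (0.305 to 0.712, counting error only). The edgeR log2 fold change was -1.10 ± 0.29 (SE) with an adjusted p of 0.744. Mutyh lies under the limit of 1 RPKM, so this value comes from a fit over all 18492 genes. The labels do not say which part of the gene is deleted, so reads elsewhere in it are no full check of the genotype.

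Ogg1 (gene ID 18294), whose loss is shared across the pairs, overlapped between them. It had 81 and 103 reads in Mutyh KO and DKO, against 94 and 130 in WT and Ogg1 KO (edgeR adjusted p 0.818). Reads covered 81.5% and 46.4% of it in Mutyh KO and DKO, against 86.7% and 47.2% in WT and Ogg1 KO. Coverage was thus low in both Ogg1-null libraries, 1 in each pair.

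The neighbourhood of Mutyh on chromosome 4 held more separated genes than the genome at large. Gene order was taken from RefSeq GRCm38.p6, since the files use mm9, and only genes compared were counted. Of the 25 nearest on each side of Mutyh, 29 of 50 (58%) had pairs that did not overlap, against 37.9% of all genes. The gap exceeded the spread in 26% of these 50, against 11.2% of all genes. The share was 55% for the 10 nearest on each side, 50% for 50 and 48.5% for 100, and 37.3% for the rest of chromosome 4. Genes were separated in both directions, 13 higher and 16 lower among the 50. Neighbouring genes are not independent, so no test is attached to these shares.

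Around Ogg1 on its own chromosome, the same comparison gave 30%, 44%, 38% and 41% for the 10, 25, 50 and 100 nearest on each side. Over the 20 chromosomes compared the share ran from 33.9% to 41.2%, and chromosome 4 as a whole ranked 3 from the top. Wide gaps were also more frequent near Mutyh. A gap of at least 0.3 was found in 7 of the 200 nearest genes (3.5%), against 0.804% of all genes and 2 of the 200 nearest to Ogg1. With genes of at least 5 RPKM only, the share among the 25 nearest on each side of Mutyh was 54%.

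**Figure D3:**
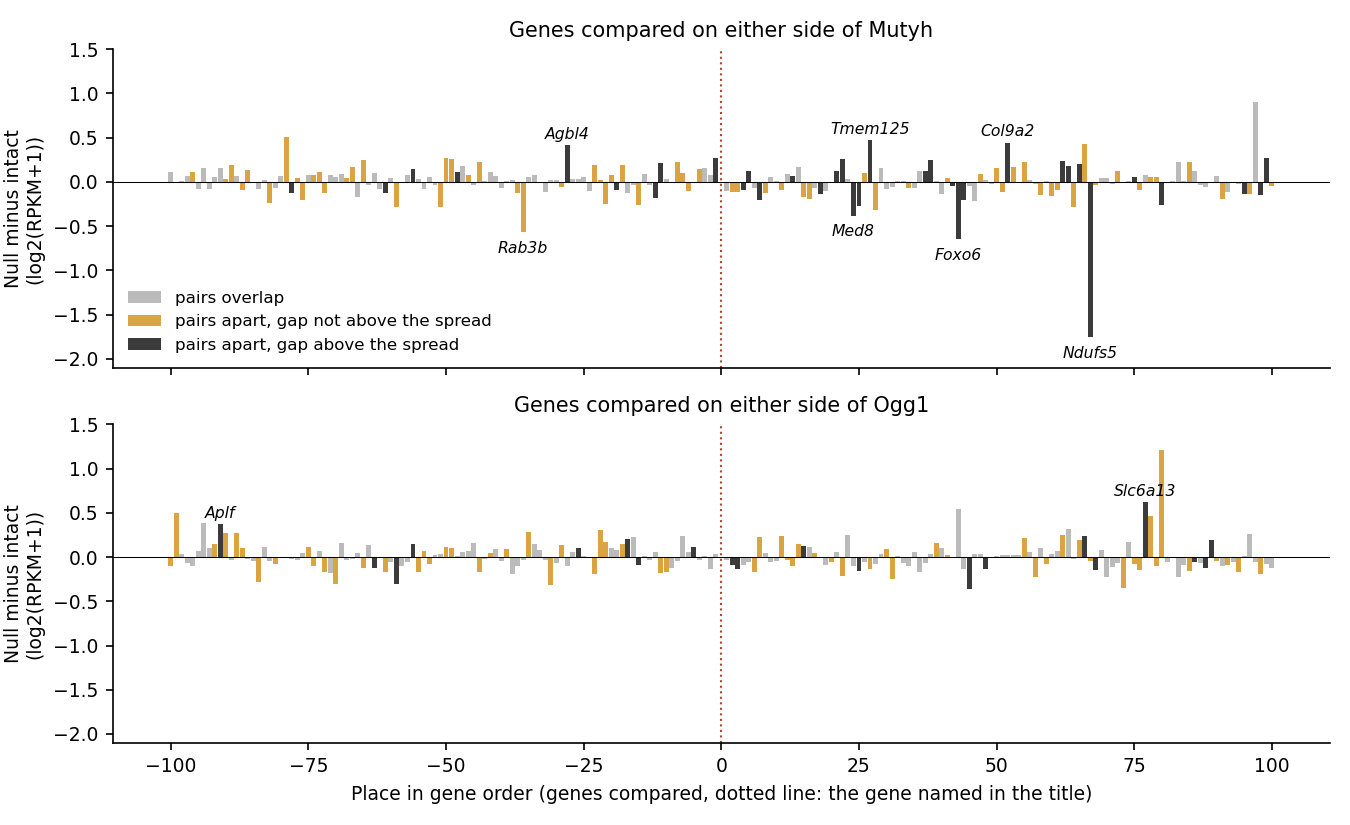
Difference of pair means (y axis, Mutyh-null minus Mutyh-intact, log2(RPKM+1)) for the 100 nearest genes compared on each side of Mutyh (top) and of Ogg1 (bottom), by place in gene order (x axis); genes with a gap of at least 0.3 are named. Separated genes around Mutyh lie on both sides of 0, from Ndufs5 at -1.75 to Tmem125 at 0.48 among those named.

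The genes with wide gaps near Mutyh lay on both of its flanks. Foxo6 was 43 genes and Ndufs5 67 genes away on one side, and Rab3b 36 genes away on the other. Col9a2, a collagen chain of cartilage, had 103 and 109 reads in Mutyh KO and DKO, against 62 and 67 in WT and Ogg1 KO. Med8, a subunit of the Mediator complex, had 173 and 199 reads against 254 and 246. Agbl4, an enzyme that trims glutamate chains from tubulin, had 142 and 140 against 106 and 89. Tmem125, a membrane protein, had 130 and 113 reads in Mutyh KO and DKO, against 79 and 76 in WT and Ogg1 KO. In each of these 4 genes the gap exceeded the spread, and Med8 was the one that lay lower. None had an edgeR adjusted p under the threshold.

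Of the 6 nearest genes on each side of Mutyh, 12 in all, 7 had pairs that did not overlap, and in 3 (Toe1, Hectd3 and Eif2b3) the gap exceeded the spread. Toe1, which adjoins Mutyh and encodes a 3' exonuclease of small nuclear RNAs, had 177 and 174 reads in Mutyh KO and DKO, against 136 and 140 in WT and Ogg1 KO, with a gap of 0.18 above its spread of 0.10. Hpdl, on the other side, overlapped at 35 and 48 reads against 62 and 33. Akr1a1, an aldehyde reductase, had 129 and 137 RPKM in Mutyh KO and DKO, against 140 and 146 RPKM in WT and Ogg1 KO, a gap of 0.03. Prdx1, a peroxiredoxin that removes hydrogen peroxide, overlapped at 52.4 and 51.2 RPKM against 52.0 and 52.8 RPKM. Tesk2, Ccdc163 and Btbd19 also overlapped. Mmachc, Zswim5, Urod, Hectd3 and Eif2b3 did not, with gaps of at most 0.08.

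Separation also went with expression level. In the lowest quintile of genes by mean RPKM, 28.8% lay higher and 8.83% lower in the Mutyh-null pair, while in the highest quintile 8.87% lay higher and 31.0% lower. The 3 quintiles between them ran in order. The median difference was 0.07 in the lowest quintile and -0.04 in the highest, and it had this order in both contrasts that share no library. It was 0.11 and -0.06 for Mutyh KO minus WT, and 0.02 and -0.03 for DKO minus Ogg1 KO. Length showed a weaker order, with 24.3% higher and 13.5% lower among the longest quintile of genes, and 15.3% higher and 23.2% lower among the shortest. With TMM scaling in place of library totals, the lowest quintile had 28.9% higher and 8.98% lower.

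**Figure D4:**
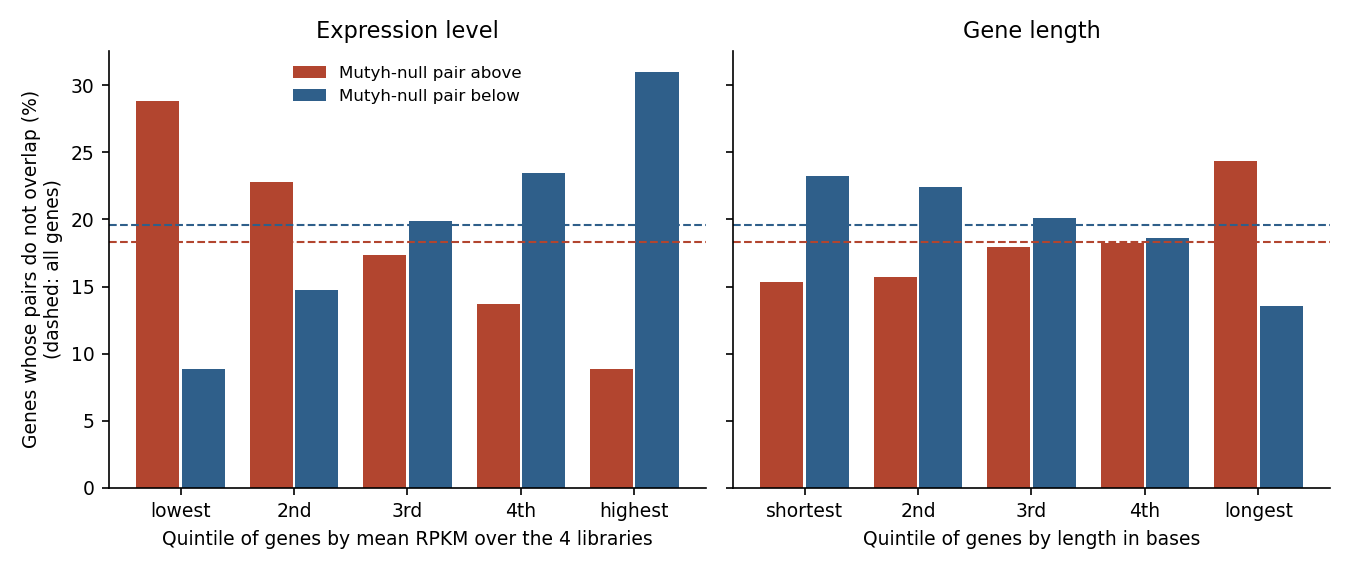
Share of genes whose pairs do not overlap (y axis, percent), higher or lower in the Mutyh-null pair, in quintiles of the 13186 genes by mean RPKM (left) and by gene length (right); dashed lines mark 18.3% and 19.6% over all genes. The higher share drops from 28.8% to 8.87% with rising expression, and the lower share climbs from 8.83% to 31.0%.

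Gene lists were then read against these shares. Of 37 lists, 36 had at least 5 members compared, and the lists held 613 different genes besides BC002163 and Ndufs5. None of these 613 passed the edgeR test (lowest adjusted p 0.671). The share of members higher and not overlapping was above 2 times the 18.3% of all genes in 9 lists, and the share lower above 2 times the 19.6% in 3. The lists were chosen with earlier results of these data known, so the shares describe these libraries.

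Counted by order alone, DNA repair and p53 response genes had shares near those of all genes (18.3% higher, 19.6% lower) or below them. Of 20 base excision repair genes compared, 2 lay higher, 3 lower and 15 overlapped, with a median difference of 0.01. Nthl1, a glycosylase for oxidised pyrimidines, had 1.67 and 1.93 RPKM in Mutyh KO and DKO, against 1.53 and 1.30 in WT and Ogg1 KO. Nudt1, which clears oxidised guanine nucleotides, overlapped at 1.49 and 1.93 RPKM against 1.41 and 1.75 RPKM. Pcna, the clamp of replication and repair, had 19.2 and 19.0 RPKM in Mutyh KO and DKO, against 21.0 and 23.4 RPKM in WT and Ogg1 KO. Of 18 p53 response genes, 2 (11.1%) lay higher and 4 (22.2%) lower, and 14 had a lower pair mean. The gap exceeded the spread in 3 of the 18, all lower, while 5.97% of all genes did so in that direction. Bax, a promoter of apoptosis, had 13.3 and 13.5 RPKM in Mutyh KO and DKO, against 16.5 and 16.1 RPKM in WT and Ogg1 KO, and Gadd45a, a growth arrest gene, 1.52 and 1.93 against 2.48 and 2.64. The gap exceeded the spread in both.

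Of 25 Nrf2 and glutathione genes, which defend against oxidants, 3 (12%) lay higher and 7 (28%) lower, with a median of -0.03. Over all genes 18.3% lay higher and 19.6% lower. Of the 25, 11 are in the highest quintile by expression, where 31.0% of all genes lay lower. Gstp1, a glutathione transferase, had 30.2 and 30.4 RPKM in Mutyh KO and DKO, against 34.1 and 32.9 RPKM in WT and Ogg1 KO. Gclm, a subunit of the enzyme that starts glutathione synthesis, had 12.3 and 12.1 RPKM against 13.3 and 13.4 RPKM. The gap exceeded the spread in both. In all it did so in 4 of the 25 genes, and in 11.2% of all genes compared.

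Ribosomal protein and complex I genes lay lower in larger numbers. Of 50 cytosolic ribosomal protein genes, 24 (48%) lay lower and 3 higher, and 44 had a lower pair mean (median difference -0.11). Rpl18 had 91.3 and 87.8 RPKM in Mutyh KO and DKO, against 103 and 107 RPKM in WT and Ogg1 KO. Rps19 had 42.8 and 49.4 RPKM against 57.1 and 58.8 RPKM. Of the 50 genes, 46 are in the highest quintile by expression, where 31.0% of genes lay lower. These genes also have many processed copies that can take or lose reads in counting. Of 38 complex I genes and copies, 15 (39.5%) lay lower and 1, BC002163, higher. Besides Ndufs5, Ndufb2 had 33.3 and 33.1 RPKM in Mutyh KO and DKO, against 36.6 and 36.7 RPKM in WT and Ogg1 KO, and 34 of the 38 are in the highest quintile.

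Chaperone and activity genes differed in what set their order. Of 23 heat shock and endoplasmic reticulum chaperone genes, 8 (34.8%) lay lower and 0 higher (median -0.18), and 13 of the 23 are in the highest quintile by expression, where 31.0% of all genes lay lower. The median was -0.36 for Mutyh KO minus WT and -0.02 for DKO minus Ogg1 KO, and with the WT library left out the list median was -0.01. Hspa1b, a stress-induced Hsp70 whose reads can be split with its copy Hspa1a, had 1.78 and 1.94 RPKM in Mutyh KO and DKO, against 4.71 and 2.26 RPKM in WT and Ogg1 KO. Hspe1, the mitochondrial co-chaperonin, was the member whose gap exceeded the spread, at 35.2 and 34.2 RPKM against 38.2 and 40.9 RPKM. Of 28 immediate early genes, 4 lay lower and 0 higher, and their medians had opposite signs in the contrasts, 0.14 for Mutyh KO minus WT and -0.23 for DKO minus Ogg1 KO.

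Receptor and clock genes included members with gaps in both directions. Over the GABA synapse, glutamate receptor and clock lists, 4% to 22.2% of members lay higher and 13.6% to 27.8% lower. Over all genes these shares were 18.3% and 19.6%. Gabra2, the alpha-2 subunit of GABA-A receptors, had 48.1 and 48.8 RPKM in Mutyh KO and DKO, against 69.3 and 61.3 RPKM in WT and Ogg1 KO. Its gap was 0.32 and its spread 0.17, while 6 of 25 GABA synapse genes lay lower and 1, Gabrg3, higher. Grin2d, an NMDA receptor subunit, had 4.51 and 4.10 RPKM in Mutyh KO and DKO, against 5.31 and 5.60 RPKM in WT and Ogg1 KO. Of 22 glutamate receptor genes, 3 lay higher and 3 lower. Rora, a nuclear receptor of the clock and of the thalamus, had 5.46 and 5.60 RPKM in Mutyh KO and DKO, against 4.20 and 4.01 RPKM in WT and Ogg1 KO. The clock list had 4 members higher and 5 lower of 18.

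Defining genes of hippocampal neurons were well expressed in all 4 libraries. Prox1, of dentate granule cells, ran from 16.6 to 20.6 RPKM, Wfs1, of CA1, from 39.1 to 45.6 RPKM, and Bok, of CA3, from 16.9 to 30.0 RPKM. Dentate granule cell genes lay higher in 7 of 18 cases (38.9%, against 18.3% of all genes) and lower in 2. Their median difference of 0.08 was 0.0005 without the Ogg1 KO library. Dock10 had 18.5 and 18.8 RPKM in Mutyh KO and DKO, against 16.3 and 16.3 RPKM in WT and Ogg1 KO, and Maml2, a coactivator of Notch, 8.41 and 8.72 against 6.96 and 6.17. CA1 genes lay higher in 2 and lower in 1 of 14, and CA2 and CA3 genes in 2 and 2 of 17. The median of 14 genes of neurogenesis was -0.02 for Mutyh KO minus WT and -0.21 for DKO minus Ogg1 KO. Of these 14 genes, 6 (42.9%, against 19.6% of all genes) lay lower and 0 higher, and in 1 the gap exceeded the spread. Among these, Tubb3, a neuronal tubulin, had 96.7 and 97.9 RPKM in Mutyh KO and DKO, against 104 and 110 RPKM in WT and Ogg1 KO. In bulk tissue, fewer cells of a type and less RNA per cell cannot be told apart.

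Of the glial lists, astrocyte genes lay higher in 4 and lower in 3 of 19, and myelin genes in 2 and 1 of 20. Over all genes 18.3% lay higher and 19.6% lower. Slc1a2, the main glutamate transporter of astrocytes, had 377 and 378 RPKM in Mutyh KO and DKO, against 309 and 334 RPKM in WT and Ogg1 KO. Fgfr3, a growth factor receptor of astrocytes, went the other way at 22.9 and 23.6 RPKM against 27.5 and 28.3 RPKM. Microglial genes lay higher in 5 of 17 (29.4%) and lower in 1. Their median was 0.005 for Mutyh KO minus WT and 0.11 for DKO minus Ogg1 KO. The median distance within the Mutyh-intact pair was 0.21 for this list. Siglech had 6.06 and 5.84 RPKM in Mutyh KO and DKO, against 5.41 and 5.34 RPKM in WT and Ogg1 KO. The gap exceeded the spread in each of these 3 named genes.

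Genes of the meninges, the membranes around the brain, lay higher in 18 of 22 cases (81.8%) and lower in 0, the largest share of the 36 lists. All 22 pair means were higher, with a median difference of 0.61. The gap exceeded the spread in 4: Ptgds, Slc6a13, Cdh1 and Mgp. Ptgds, the prostaglandin D synthase that is also secreted into cerebrospinal fluid, had 1002 and 1217 RPKM in Mutyh KO and DKO, against 545 and 702 RPKM in WT and Ogg1 KO. Slc6a13, a GABA transporter of the meninges, had 7.41 and 8.74 RPKM against 4.52 and 5.25 RPKM. All 22 genes had reads in the files. Their median difference was 0.62 for Mutyh KO minus WT and 0.46 for DKO minus Ogg1 KO, and the list median was 0.34 without the WT library.

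In vessel, ependymal and interferon lists, fewer members lay higher than did not, and none was called. Endothelial and mural genes lay higher in 9 of 19 (47.4%) and lower in 0, with Vwf, the clotting glycoprotein, at 4.78 and 6.01 RPKM in Mutyh KO and DKO, against 3.40 and 3.77 RPKM in WT and Ogg1 KO. Motile cilia genes of the ependyma lay higher in 6 of 14, with a median difference of 0.20 that was -0.03 without the Mutyh KO library. Of these 14 genes, 8 are in the lowest quintile by expression, where 28.8% of all genes lay higher. Interferon-stimulated genes lay higher in 8 of 18 (44.4%) and lower in 0, and their gap exceeded the spread in 5. Gbp3, an interferon-induced GTPase, had 2.28 and 2.23 RPKM in Mutyh KO and DKO, against 1.40 and 1.56 RPKM in WT and Ogg1 KO. Isg15, a ubiquitin-like protein, had 3.01 and 3.42 RPKM against 2.26 and 2.02 RPKM, and Ifi27l2a 2.18 and 2.74 RPKM against 1.03 and 0.855 RPKM. Of these 18 genes, 11 are in that lowest quintile. Of 13 MHC genes, 3 lay higher and 0 lower.

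**Figure D5:**
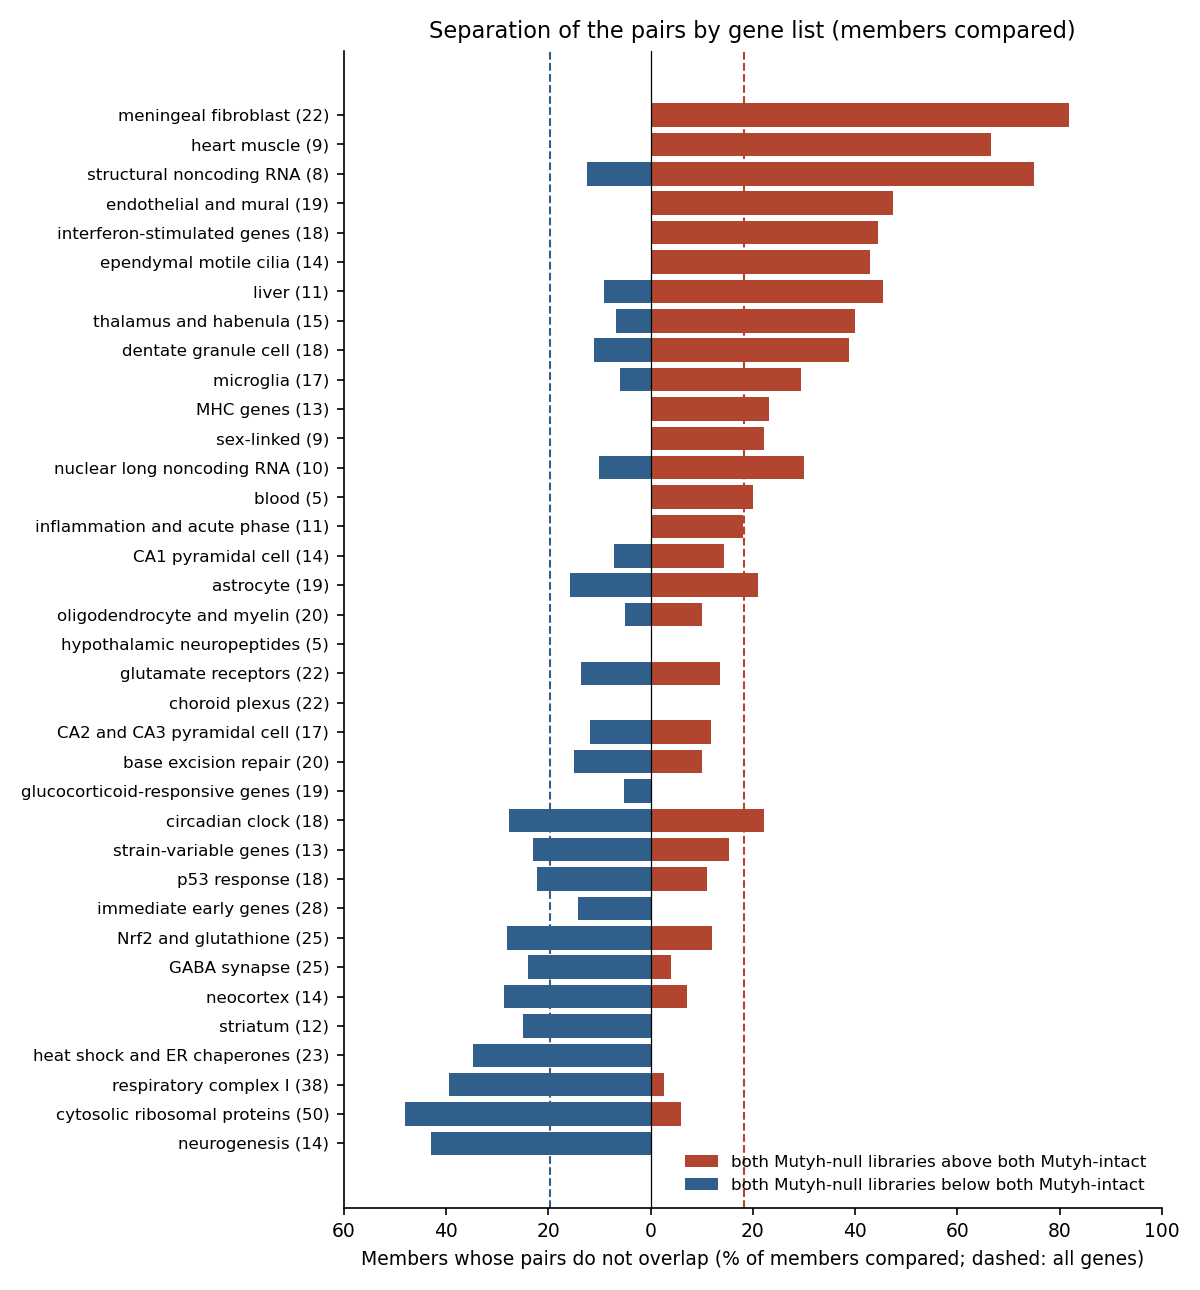
Members of each list whose pairs do not overlap (x axis, percent of members compared, number in brackets), higher in the Mutyh-null pair to the right and lower to the left; dashed lines mark 18.3% and 19.6% over all genes. Meningeal genes at 81.8% higher and ribosomal protein genes at 48% lower lie far from the dashed lines, while choroid plexus genes separate in neither direction.

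In choroid plexus genes the pair means differed while the pairs overlapped. All 22 members had a higher pair mean and the median difference was 0.71, yet 0 of 22 separated. Ttr, the carrier of thyroid hormone in cerebrospinal fluid, had 45999 and 24883 reads in Mutyh KO and DKO, against 3542 and 47882 in WT and Ogg1 KO. The list took 5583 and 2854 reads per M reads in Mutyh KO and DKO, against 708 and 5401 in WT and Ogg1 KO. The WT library was far below the other 3, and without it the median difference was -0.29.

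In several genes with large pair differences 1 library stood apart. Xist, the RNA of the inactive X chromosome, had 10307 and 29 reads in Mutyh KO and DKO, against 14 and 23 in WT and Ogg1 KO. Ddx3y, a Y-linked RNA helicase, had 289 and 884 reads against 816 and 724, so the Mutyh KO library stood apart in its sex-linked content. It held high Xist together with fewer Y-linked reads, while DKO, WT and Ogg1 KO held Y-linked reads and little Xist. The part of sex in the differences between the pairs was not tested. Gh, the growth hormone of the pituitary, had 1 and 256 reads in Mutyh KO and DKO, against 4 and 7 in WT and Ogg1 KO. Pmch, a peptide of the lateral hypothalamus, had 67 and 1 against 2 and 1. Actc1, the heart actin, had 150 and 144 reads in Mutyh KO and DKO, against 128 and 0 in WT and Ogg1 KO, where Ogg1 KO was the low library. Heart muscle genes lay higher in 6 of 9 (66.7%, against 18.3% of all genes), with a median difference of 0.66 that was 0.20 without the Ogg1 KO library. Liver genes lay higher in 5 of 11 (45.5%), with a median of 0.68 that was -0.01 without that library. Of these, 7 heart muscle and 9 liver genes are in the lowest quintile by expression, where 28.8% of all genes lay higher. The liver list took 78.2 and 79.2 reads per M reads in Mutyh KO and DKO, against 78.0 and 18.2 in WT and Ogg1 KO, so Ogg1 KO was the low library there too. Thalamic genes had 6 of 15 (40%) higher and 1 lower, and 5 of the 15 are in that lowest quintile. Their median difference stayed at 0.16 to 0.28 with any library left out, against 0.22 with all 4. With markers of other cells and tissues, sex-linked genes and structural RNAs left out, a choice made after seeing the data, 2363 genes lay higher and 2580 lower.

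Depth was alike in all libraries. Unique reads in genes numbered 17.15 and 18.2 M in Mutyh KO and DKO, against 18.12 and 17.02 M in WT and Ogg1 KO. Genes listed with at least 1 read numbered 17556 and 17587 in the Mutyh-null libraries, against 17419 and 17398 in the Mutyh-intact libraries. The edgeR fit put the biological coefficient of variation common to all genes at 9.56%.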

How the data were processed

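RNA was measured in 4 hippocampal libraries, 1 per genotype. Total RNA was isolated on RNeasy columns, per the labels' protocols, and the mouse build was mm9, per the submitters' processing notes. The aligner, the counting program, the annotation and strand setting were not stated in any source used here. The authors deposited a count of unique reads per gene, the gene length, the coverage of the gene in percent, and RPKM, per the file headers. Genes absent from a library's file were taken as 0 reads. Rows with no symbol held 0.0179% to 0.0195% of reads.

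From these files, log2(RPKM+1) was compared between the pairs for genes with a mean of at least 1 RPKM. Adding 1 understates differences of low genes. Counts were tested with edgeR 4.0.16 in R 4.3.3, with TMM scaling and a quasi-likelihood fit with 2 residual degrees of freedom. Benjamini-Hochberg adjustment was over all genes compared, with a threshold of 0.05. The fit was tested on simulated data in which all genes shared the same variability and Ogg1 had no effect. That simulation does not check genes whose libraries differ widely within a pair. Mutyh lay below the filter and was tested in a fit over all genes. DESeq2 1.42.0, limma 3.58.1, other scalings, filters and pseudocounts, an Ogg1 term and leaving out each library were alternatives. Ratios of reads carry exact conditional 95% intervals, which cover counting error only. Gene order and chromosomes came from RefSeq GRCm38.p6 by gene ID (13147 genes placed).

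Named genes were Mutyh and Ogg1, the called genes topped up to 12 in each direction by the widest gap, the 6 nearest genes on each side of Mutyh, and of each of the 37 lists up to 4 members with a gap above the spread, else the 2 with the largest difference. Some further list members are given as examples, chosen after their values were seen. One of the genes called by DESeq2 is not reported here. The members and lists were chosen with earlier results of these data known. The libraries come from mice of different genotypes, and how many animals each holds is not given, so the spread within a pair holds technical and animal differences and any effect of Ogg1.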

Additional observations from a re-analysis of the deposited data

Results flagged for a closer look

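Some results had opposite signs in the contrasts that share no library, Mutyh KO minus WT and DKO minus Ogg1 KO. Each contrast sets 1 library against 1, so these differences between contrasts were not tested. The median of the choroid plexus list was 2.21 for Mutyh KO minus WT and -0.74 for DKO minus Ogg1 KO on the log2(RPKM+1) scale. Its genes Ttr (3.77 and -1.04) and Kcnj13, a potassium channel (3.44 and -0.73), had the same order. Blood genes stood at 1.68 for Mutyh KO minus WT and -0.28 for DKO minus Ogg1 KO. Immediate early genes stood at 0.14 for Mutyh KO minus WT and -0.23 for DKO minus Ogg1 KO, with Arc, which acts at synapses, at 58.5 and 33.5 RPKM in Mutyh KO and DKO, against 57.7 and 55.8 RPKM in WT and Ogg1 KO. CA1 pyramidal cell genes stood at -0.12 for Mutyh KO minus WT and 0.14 for DKO minus Ogg1 KO, and hypothalamic neuropeptide genes at 0.13 and -0.15. Liver genes stood at -0.10 for Mutyh KO minus WT and 1.46 for DKO minus Ogg1 KO.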

How the results depend on the processing

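No fit with a replicate block was possible, since each genotype has 1 library and the labels give no replicate numbers. With Ogg1 genotype as a second term, which sets Mutyh KO beside WT and DKO beside Ogg1 KO and leaves 1 residual degree of freedom, edgeR called 1 gene higher and 0 lower (adjusted p 0.00079 for BC002163 and 0.0665 for Ndufs5). The count of genes called higher, 1 with edgeR, was 10 with DESeq2 and 2 to 13 with a library left out, and the count called lower, 0, was 1 with genes of at least 5 RPKM, 1 with limma, 2 with DESeq2 and 0 to 6 with a library left out. Genes separated in the higher direction numbered 1369 at 5 RPKM and 3856 to 5103 with a library left out, and in the lower direction 4013 to 5008. Gaps above the spread in the higher direction numbered 1054 with no filter, 375 at 5 RPKM and 1768 to 2921 with a library left out, and in the lower direction 1871 to 2942; fewer or more genes and libraries change these counts by construction. Mutyh missed the threshold under every alternative run (adjusted p from 0.401 to 1.0). Of 272 alternative values of the 24 genes named by gap, 259 kept their direction and side of the threshold, 13 passed it where the reported value had not (5 of them Ndufs5), and 0 reversed. Of 37 list medians, 0 changed sign under TMM scaling or a pseudocount of 0.1, and 18 did with some library left out. Depth limits genes of few reads: the lowest quintile by mean RPKM lay at 1.0 to 3.33 RPKM. With 1 library per genotype, differences between the pairs cannot be told apart from differences between animals or dissections.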

Other observations

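Further lists gave values not described above. Of 19 glucocorticoid-responsive genes, 0 lay higher in the Mutyh-null pair and 1, Crhr1, lower. Of 10 nuclear long noncoding RNAs, 3 lay higher and 1 lower. Neat1, the scaffold of paraspeckles, had 55.0 and 61.7 RPKM in Mutyh KO and DKO, against 43.7 and 48.3 RPKM in WT and Ogg1 KO, a gap of 0.18 above its spread of 0.16. Of 11 inflammation and acute phase genes, 2 lay higher. Cp, the ferroxidase ceruloplasmin, had 6.13 and 6.90 RPKM in Mutyh KO and DKO, against 4.20 and 5.11 RPKM in WT and Ogg1 KO. Of 5 blood genes compared, Alas2, the first enzyme of heme synthesis in red cells, was the one that lay higher, at 187 and 117 reads in Mutyh KO and DKO, against 56 and 76 in WT and Ogg1 KO.

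Neocortical and striatal lists had few members whose pairs did not overlap. Over all genes 18.3% lay higher and 19.6% lower. The neocortical median difference was -0.02. Of 14 neocortical genes, 1 lay higher and 4 (28.6%) lower, and Fezf2, a transcription factor of deep-layer neurons, had 20.3 and 20.1 RPKM in Mutyh KO and DKO, against 23.7 and 24.7 RPKM in WT and Ogg1 KO. Of 12 striatal genes, 0 lay higher and 3 (25%) lower. The gap exceeded the spread in all 3, while 5.97% of all genes did so in that direction. Among the 3 was Gng7, a G protein subunit, at 60.5 and 62.2 RPKM in Mutyh KO and DKO, against 72.0 and 67.3 RPKM in WT and Ogg1 KO. The striatal median was 0.04 for Mutyh KO minus WT and -0.18 for DKO minus Ogg1 KO. Of 5 hypothalamic neuropeptide genes, 0 separated in either direction. The pituitary list had 1 gene compared, Gh. A list of strain-variable genes had 2 of 13 members higher and 3 lower, but it held BC002163 and Ndufs5 because earlier results of these data were known, and their place in it says nothing further. Of 9 sex-linked genes, 2 lay higher and 0 lower. Among the 2 was Xist, with a gap of 0.02 and a spread of 4.99, since Mutyh KO alone held many of its reads. None of these genes but BC002163 passed the edgeR test.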
